A study of Homo sapiens with 9 samples.

Results

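A set of 9 genes of the basement membrane were followed through RNA sequencing of A549, a cell line established from a human lung adenocarcinoma and epithelial in origin. They were picked by symbol with earlier results of these data known, and all 9 were found by Ensembl ID among the 62257 gene rows. They are the laminin genes LAMA3, LAMA4, LAMA5, LAMB1, LAMB3 and LAMC1, the collagen IV genes COL4A1 and COL4A2, and the nidogen gene NID1. The cells had been kept for 96 h with apoEVs, vesicles enclosed by membrane that cells release as they die by apoptosis, or with phosphate-buffered saline. STS_apoEV cells received vesicles from apoptosis set off by staurosporine, a broad protein kinase inhibitor. DDP_apoEV cells received vesicles from apoptosis set off by cisplatin, a platinum compound used in chemotherapy that binds and links DNA strands. Control cells received saline. Each group held 3 libraries, and all 9 came from the same line grown in serum-containing medium with penicillin and streptomycin. The labels name no source cell for the vesicles and do not state separate cultures for the libraries of one group. The p-values therefore rest on the spread among these libraries alone, and that spread may be technical.

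The basement membrane is the thin sheet of matrix on which epithelia rest. Laminins are its cross-shaped trimers of an alpha, a beta and a gamma chain, each from its own gene, and they polymerise on the cell surface where integrins and dystroglycan hold them. Collagen IV forms the second network, also from trimers of gene-specific chains, and nidogens bridge both networks. The products of LAMA3 and LAMB3 belong to a laminin that anchors epithelial cells at hemidesmosomes, while laminins with the LAMA5 product are the broad epithelial form and those with the LAMA4 product are best known from vessels, muscle and fat. The deposited hg38 intervals are given with each identifier. LAMA3 (ENSG00000053747) is at chr18:23689453-23956222 on the plus strand, LAMA4 (ENSG00000112769) at chr6:112107931-112254939 on the minus strand and LAMA5 (ENSG00000130702) at chr20:62307955-62367312 on the minus strand. LAMB1 (ENSG00000091136) is at chr7:107923799-108003213 and LAMB3 (ENSG00000196878) at chr1:209614870-209652425, both on the minus strand, and LAMC1 (ENSG00000135862) at chr1:183023420-183145592 on the plus strand. COL4A1 (ENSG00000187498) is at chr13:110148963-110307157 on the minus strand, COL4A2 (ENSG00000134871) at chr13:110305812-110513209 on the plus strand and NID1 (ENSG00000116962) at chr1:235975830-236065109 on the minus strand. All 9 are annotated as protein-coding.

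Library totals spanned 13799950 to 14816996 counts for STS_apoEV, 15949255 to 16526399 counts for DDP_apoEV and 14356195 to 15492993 counts for control. Of 9 lung epithelial markers KRT8 held 62.5% of the counts, and NKX2-1, a lung lineage transcription factor, had at most 3 counts in any library. The surfactant genes SFTPB and SFTPC had at most 14 and 8. The epithelial markers summed to between 6643 and 7984 CPM (counts scaled to library size) in STS_apoEV, between 5652 and 6148 CPM in DDP_apoEV and between 10091 and 11025 CPM in control. KRT8 and KRT18 carry these sums. CDH1 and EPCAM were also lower in both vesicle groups than in control, without overlap. CDH1 stood at 8.09 to 10.8 CPM in STS_apoEV, 7.69 to 14.2 CPM in DDP_apoEV and 16.1 to 19.9 CPM in control. EPCAM had 1.28 to 2.04 CPM in STS_apoEV, 1.69 to 3.29 CPM in DDP_apoEV and 3.51 to 3.69 CPM in control. Not every marker followed them. KRT19 stood at 135 to 163 CPM in STS_apoEV, 84.8 to 105 CPM in DDP_apoEV and 98.8 to 122 CPM in control, and MUC1 at 3.91 to 5.77 CPM in STS_apoEV, 0.750 to 2.03 CPM in DDP_apoEV and 1.95 to 3.40 CPM in control. Fibroblast markers (9 genes, 58.6% of their counts from COL1A1) summed to between 3.66 and 4.35 CPM in STS_apoEV. The sums were between 3.39 and 3.64 CPM in DDP_apoEV and between 3.20 and 3.61 CPM in control. POSTN stood at 0 in all 9 libraries. THY1 lay higher in DDP_apoEV, at 0.938 to 1.34 CPM, against 0.135 to 0.563 CPM in STS_apoEV and 0.130 to 0.684 CPM in control. Other fibroblast markers reached furthest in STS_apoEV, with overlap. COL3A1 had 0.280 to 1.15 CPM in STS_apoEV, 0.0609 to 0.318 CPM in DDP_apoEV and 0.0684 to 0.456 CPM in control. LUM had 0.0675 to 1.05 CPM, 0 to 0.127 CPM and 0.208 to 0.274 CPM in the same order. Whether these shifts in other genes bear on the basement membrane values was not tested. In such bulk samples fewer cells of a type and less RNA per cell cannot be told apart.

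Per unit of gene length, LAMA5, LAMB1 and LAMC1 were the highest of the 9 genes in every group, although LAMC1 at 11.3 ± 1.05 FPKM stood close above LAMB3 in STS_apoEV. In FPKM (the deposited unit, scaled for gene length and library size) LAMA5 averaged 26.2 ± 3.46 in STS_apoEV, 33.2 ± 3.30 in DDP_apoEV and 29.7 ± 2.03 in control (SD, n = 3). LAMB1 and LAMC1 came next in every group. COL4A2, COL4A1, NID1 and LAMA4 all lay near or below 1 FPKM, with a group mean of 0.984 for COL4A2 in DDP_apoEV as the highest. Some places in this order differed between groups. LAMB3 stood above LAMA3 in STS_apoEV (8.05 ± 0.793 against 2.45 ± 0.375 FPKM) and in control (4.62 ± 1.17 against 2.15 ± 0.128 FPKM), and below it in DDP_apoEV (2.49 ± 0.126 against 5.12 ± 0.547 FPKM). LAMA4 lay above COL4A1 in STS_apoEV and was the lowest of the 9 in the other groups. Neighbours whose libraries overlapped were COL4A2 and LAMA4 as well as COL4A1 and NID1 in STS_apoEV, LAMB1 and LAMC1 in DDP_apoEV, and NID1 and LAMA4 in control. The deposited LAMA3 length covers long and short transcripts together, so its FPKM may understate the level of the short form. Over the 9 genes the deposited lengths ran from 4647 bases for LAMB3 to 19271 for COL4A2, with 18592 for LAMB1. FPKM orders, ratios and shares across genes depend on these lengths. Whether the lengths match the transcripts present in the cells was not tested.

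A gene counts as changed here when edgeR's quasi-likelihood test over all genes gave an adjusted p under 0.05. All 9 genes passed the filter on low counts. LAMA4 and NID1 did so through libraries of both vesicle groups, with some control libraries under the filter. With STS_apoEV 2 of 9 rose and 2 fell against control, where 32.8% of all 16947 genes tested changed (15.9% higher and 16.8% lower). The libraries of these groups did not overlap for 5 of 9 (2 higher and 3 lower, LAMB1 being the gene that did not pass), where this held for 43.3% of all genes (21.6% higher and 21.7% lower). The members' median log2 fold change was −0.14, against 0.01 over all genes. With DDP_apoEV 2 of 9 rose and 1 fell against control, where 15.5% of all genes changed (7.16% higher and 8.32% lower), with medians of 0.21 and −0.00. The libraries did not overlap for 4 of 9 (3 higher and 1 lower), where this held for 32.2% of all genes (15.8% higher and 16.4% lower). Between the vesicle types 2 of 9 were higher and 5 lower in STS_apoEV than in DDP_apoEV, where 39.7% of all genes differed (20.2% higher and 19.5% lower), with medians of −0.32 and 0.03. The libraries did not overlap for those same 7, where this held for 47.5% of all genes (24.3% higher and 23.2% lower). The comparisons share libraries, so their counts are not separate pieces of evidence.

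**Figure D1:**
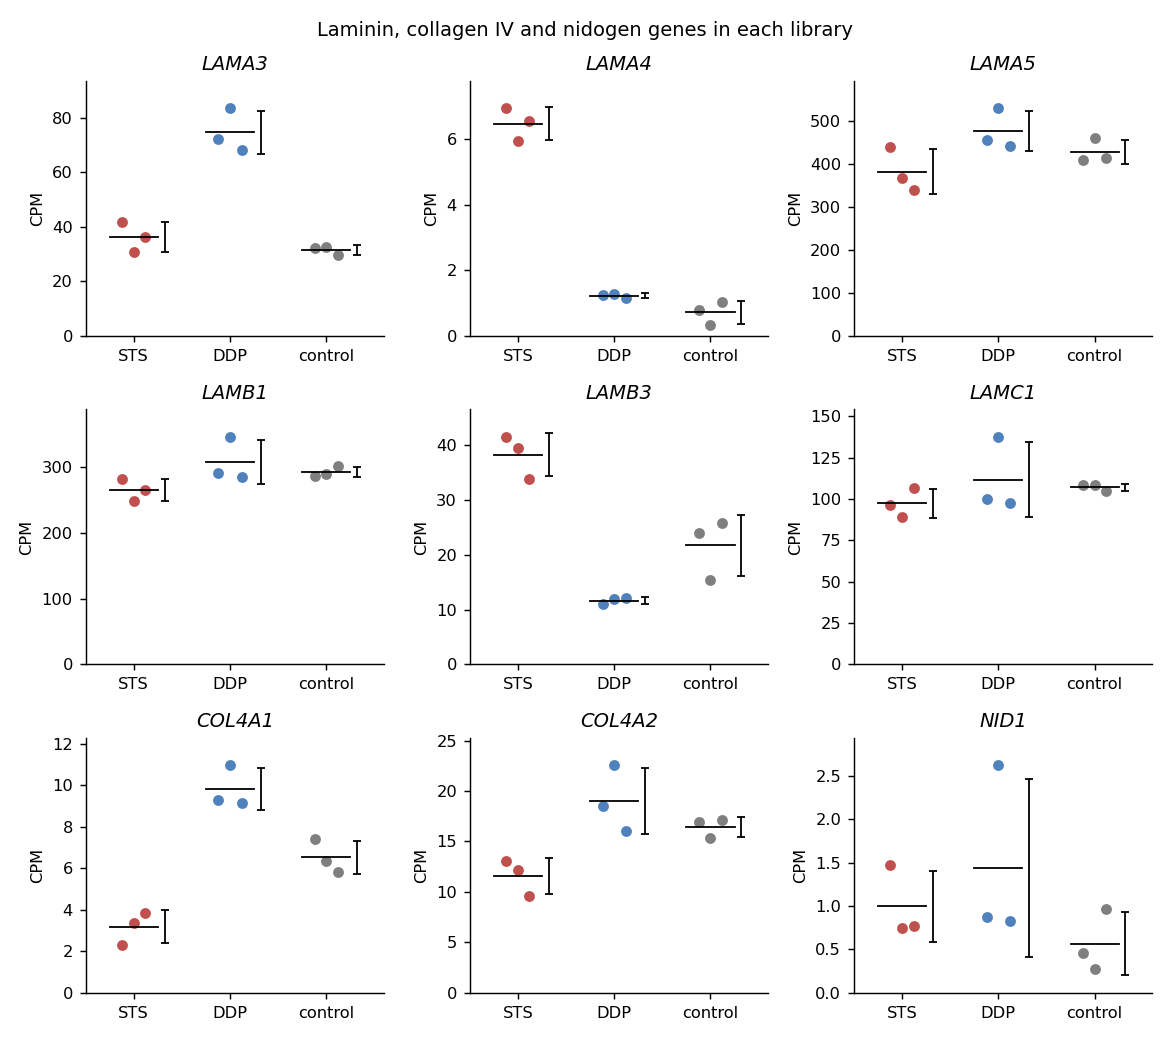
CPM (TMM-scaled, linear axes from 0) of the 9 genes in every library, with STS_apoEV, DDP_apoEV and control from left to right. Points are libraries, the horizontal line is the group mean and the bar beside it is 1 SD either way (n = 3). LAMA4 stands at 5.94 to 6.94 CPM in STS_apoEV and at 0.342 to 1.28 CPM elsewhere, LAMA3 is highest in DDP_apoEV, and LAMB3 and the collagen IV genes run in opposite orders over the groups.

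**Figure D2:**
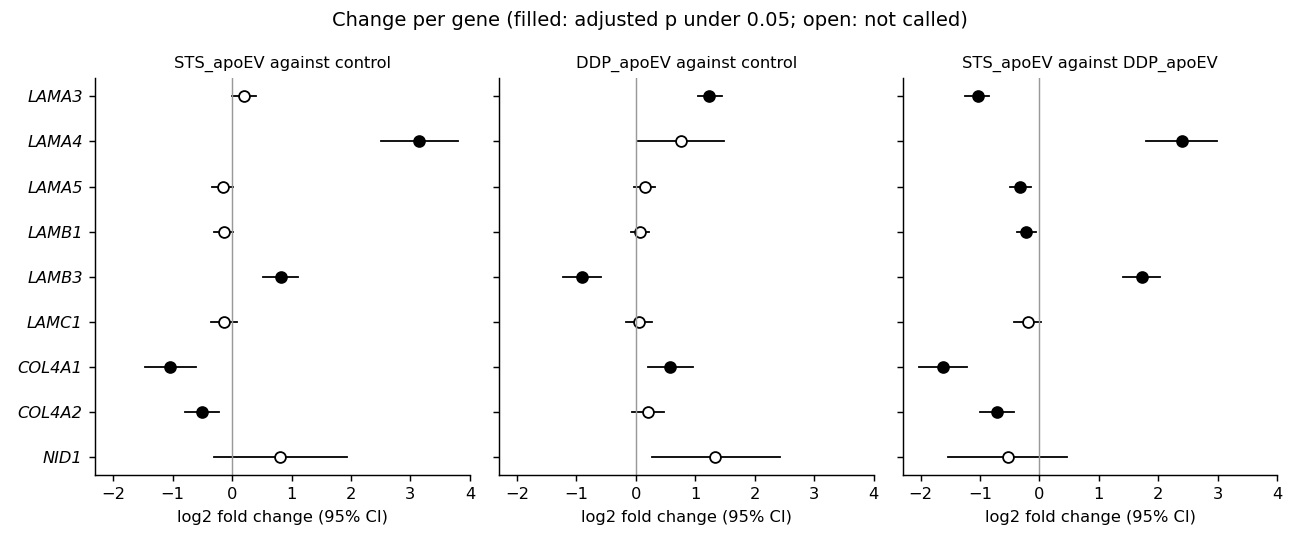
Log2 fold change of each gene (x axis) with its 95% confidence interval, for STS_apoEV against control, DDP_apoEV against control and STS_apoEV against DDP_apoEV. Filled points passed an adjusted p of 0.05 and open points did not. LAMB3 and COL4A1 lie on opposite sides of 0 in the first and second panels.

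Of the alpha chain genes, LAMA3, whose product serves the hemidesmosome laminin, changed with DDP_apoEV. It stood at 72.0, 83.4 and 68.2 CPM in DDP_apoEV, against 32.2, 32.7 and 29.5 CPM in control, with no overlap. It therefore rose 2.37-fold (log2 fold change 1.24, SE 0.101, adjusted p = 1e-10). In STS_apoEV it had 41.9, 30.6 and 36.2 CPM, which overlapped control (log2 fold change 0.20, 95% interval −0.01 to 0.41, adjusted p = 0.142). That value passed the threshold without STS_apoEV replicate 2 (log2 fold change 0.31, adjusted p = 0.0217). LAMA3 was 2.06-fold lower in STS_apoEV than in DDP_apoEV (log2 fold change −1.04, adjusted p = 7.46e-10).

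LAMA4 had the largest fold change of the 9 genes. Its libraries read 6.94, 5.94 and 6.55 CPM in STS_apoEV, 1.25, 1.28 and 1.14 CPM in DDP_apoEV, and 0.781, 0.342 and 1.04 CPM in control. The control values rest on 12, 5 and 15 counts, against 99, 88 and 93 in STS_apoEV. LAMA4 rose 8.89-fold with STS_apoEV (log2 fold change 3.15, SE 0.320, 95% interval 2.50 to 3.80, adjusted p = 1.72e-09), and it was 5.26-fold higher in STS_apoEV than in DDP_apoEV (adjusted p = 5.93e-08). As log2(FPKM + 1), where the added 1 shrinks differences of weakly expressed genes, the STS_apoEV difference from control was 0.53. In DDP_apoEV every library lay above every control library, but the difference did not pass the test (log2 fold change 0.76, 95% interval 0.03 to 1.49, adjusted p = 0.165). Even at its highest LAMA4 gave only 1.68% to 2.03% of the summed FPKM of the alpha chain genes, against 0.248% to 0.281% in DDP_apoEV and 0.0826% to 0.277% in control. Endothelial markers (8 genes) summed to 3.94 to 5.36 CPM in STS_apoEV, 2.76 to 3.57 CPM in DDP_apoEV and 2.88 to 4.04 CPM in control. Among them PECAM1 stood at 1.97 to 3.37 CPM in STS_apoEV, 0.254 to 0.688 CPM in DDP_apoEV and 0.0651 to 0.278 CPM in control. ESAM, the endothelial marker with the most counts, lay lower in STS_apoEV with some overlap, at 0.472 to 1.13 CPM in STS_apoEV, 1.14 to 1.63 CPM in DDP_apoEV and 1.09 to 2.01 CPM in control. CDH5 overlapped between STS_apoEV (0.540 to 1.68 CPM) and control (1.04 to 1.497 CPM), and KDR, the vascular growth factor receptor gene, had at most 2 counts in any library. Leukocyte markers (7 genes, 72.1% of their counts from CD14) summed to 20.4 to 25.8 CPM in STS_apoEV, 14.0 to 15.5 CPM in DDP_apoEV and 10.6 to 16.6 CPM in control. Among them ITGAM stood at 5.73 to 7.29 CPM in STS_apoEV, 2.86 to 3.81 CPM in DDP_apoEV and 2.39 to 4.16 CPM in control. PTPRC, the pan-leukocyte gene, had no more than 3 counts. The part of these markers in the LAMA4 result was not tested.

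LAMA5, the alpha chain gene with the highest level, had 441, 368 and 339.7 CPM in STS_apoEV, 457, 530.4 and 443 CPM in DDP_apoEV, and 410.3, 460.1 and 415 CPM in control. Neither vesicle group separated from control (log2 fold change −0.16 with STS_apoEV, 95% interval −0.34 to 0.02, and 0.15 with DDP_apoEV, 95% interval −0.03 to 0.33). Without STS_apoEV replicate 1 the first of these passed (log2 fold change −0.29, adjusted p = 0.0111). LAMA5 was 1.25-fold lower in STS_apoEV than in DDP_apoEV (log2 fold change −0.32, adjusted p = 0.005), a call lost under limma on unfiltered log2(FPKM + 1) (adjusted p = 0.0823).

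The RefSeq promoter windows (GRCh38.p14, 250 bases before to 50 after a start, 5′ to 3′ on the gene's strand) of 3 laminin genes are shown to set the promoters of LAMA3 and LAMB3, whose products share a trimer, beside each other and beside that of LAMA4. LAMA3 is at chr18:23872770-23873069, plus strand, LAMB3 at chr1:209651325-209651624, minus strand, the innermost of its 3 listed starts, and LAMA4 at chr6:112254518-112254817, minus strand. Capitals mark motif matches on either strand. AP-1 sites were searched as TGANTCA, TEAD sites as GGAATG, GC boxes as GGGCGG, and the remaining motif as CCAAT.
LAMA3: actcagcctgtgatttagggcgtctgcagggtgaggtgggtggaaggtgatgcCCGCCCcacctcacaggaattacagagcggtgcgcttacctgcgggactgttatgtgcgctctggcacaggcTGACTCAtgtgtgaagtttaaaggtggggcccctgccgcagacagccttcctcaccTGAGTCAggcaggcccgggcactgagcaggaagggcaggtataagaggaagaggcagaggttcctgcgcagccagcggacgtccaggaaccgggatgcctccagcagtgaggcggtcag
LAMB3: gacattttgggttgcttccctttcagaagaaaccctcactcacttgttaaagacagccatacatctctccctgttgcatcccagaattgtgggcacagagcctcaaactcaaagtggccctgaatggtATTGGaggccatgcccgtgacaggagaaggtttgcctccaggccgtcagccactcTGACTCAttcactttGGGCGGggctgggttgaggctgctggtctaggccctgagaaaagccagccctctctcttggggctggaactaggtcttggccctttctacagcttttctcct
LAMA4: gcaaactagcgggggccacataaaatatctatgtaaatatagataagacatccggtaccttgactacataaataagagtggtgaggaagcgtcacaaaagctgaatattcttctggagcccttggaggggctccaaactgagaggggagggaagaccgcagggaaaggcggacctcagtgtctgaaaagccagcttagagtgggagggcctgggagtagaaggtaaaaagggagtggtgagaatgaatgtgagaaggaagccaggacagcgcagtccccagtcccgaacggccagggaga
The LAMA3 window held 2 AP-1 matches and 1 GC box. This LAMB3 window held 1 AP-1 match, 1 GC box and 1 CCAAT box, and its other windows held a GC box alone. The LAMA4 window held none of the 4 motifs. Over 34796 distinct promoter windows of this length 7.73% held TGANTCA, 44.9% GGGCGG, 34.6% CCAAT and 14.0% GGAATG. The LAMA3 start shown lies 183567 bases inside the deposited gene, and the counts do not separate transcripts from this start and from the outer one. A match is a description of letters and not of binding.

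LAMB3, the beta chain gene of the hemidesmosome laminin, moved one way with STS_apoEV and the other way with DDP_apoEV. It stood at 41.4, 39.3 and 33.8 CPM in STS_apoEV, at 10.9, 11.9 and 12.01 CPM in DDP_apoEV, and at 24.0, 15.3 and 25.8 CPM in control. The 3 groups did not overlap. LAMB3 rose 1.76-fold with STS_apoEV (log2 fold change 0.82, SE 0.141, adjusted p = 1.16e-04) and fell 1.87-fold with DDP_apoEV (log2 fold change −0.90, SE 0.152, adjusted p = 2.23e-04). The direct difference was 3.29-fold higher in STS_apoEV than in DDP_apoEV (log2 fold change 1.72, adjusted p = 7.64e-09). With limma on log2(FPKM + 1) and no filter the DDP_apoEV call was lost (adjusted p = 0.0676). Within a library the FPKM ratio of LAMB3 over LAMA3 was 3.09, 4.004 and 2.91 in STS_apoEV, 0.474, 0.444 and 0.549 in DDP_apoEV, and 2.32, 1.46 and 2.72 in control. LAMA3 and LAMB3, although their products share a trimer, thus changed against each other with DDP_apoEV.

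LAMB1 and LAMC1, the beta and gamma chain genes of the broad epithelial form, did not pass the test against control with either vesicle type. LAMB1 had 282, 248 and 266 CPM in STS_apoEV, 292, 346 and 286 CPM in DDP_apoEV, and 286, 290.3 and 302 CPM in control. Its 95% intervals against control ran from −0.30 to 0.01 with STS_apoEV and from −0.08 to 0.23 with DDP_apoEV on the log2 scale. LAMB1 was 1.16-fold lower in STS_apoEV than in DDP_apoEV (adjusted p = 0.024). That call was lost without STS_apoEV replicate 2 (adjusted p = 0.104) or DDP_apoEV replicate 2 (0.189), and under limma on unfiltered log2(FPKM + 1) (0.113). LAMC1 had 96.7, 89.2 and 107 CPM in STS_apoEV, 100.2, 138 and 97.6 CPM in DDP_apoEV, and 109, 108 and 105 CPM in control. No pair of groups separated for LAMC1, with 95% intervals of −0.36 to 0.09 for STS_apoEV against control, −0.16 to 0.28 for DDP_apoEV against control and −0.42 to 0.02 for STS_apoEV against DDP_apoEV. Without DDP_apoEV replicate 3 the difference between the vesicle types passed (log2 fold change −0.29, adjusted p = 0.031). DDP_apoEV replicate 2 was the highest of its group for 8 of the 9 genes, by a median of 0.25 on the log2 scale above the mean of the other libraries of the group, while the median over all genes tested was 0.01. DDP_apoEV replicate 3 was the lowest for 8 of 9 (median −0.15, against 0.00 over all genes), and STS_apoEV replicate 1 the highest for 7 of 9 (0.18, against 0.01).

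Shares of FPKM within a chain class put these changes on a common scale, which rests on the deposited gene lengths. LAMA3 made up 13.1% to 13.4% of the alpha chain total in DDP_apoEV, against 6.50% to 7.16% in control, and 7.43% to 9.27% in STS_apoEV. LAMB3 made up 25.01% to 29.6% of the beta chain total in STS_apoEV, 9.08% to 10.45% in DDP_apoEV and 12.3% to 18.8% in control. LAMA5 kept at least 86.2% of the alpha chain total in all 9 libraries.

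**Figure D3:**
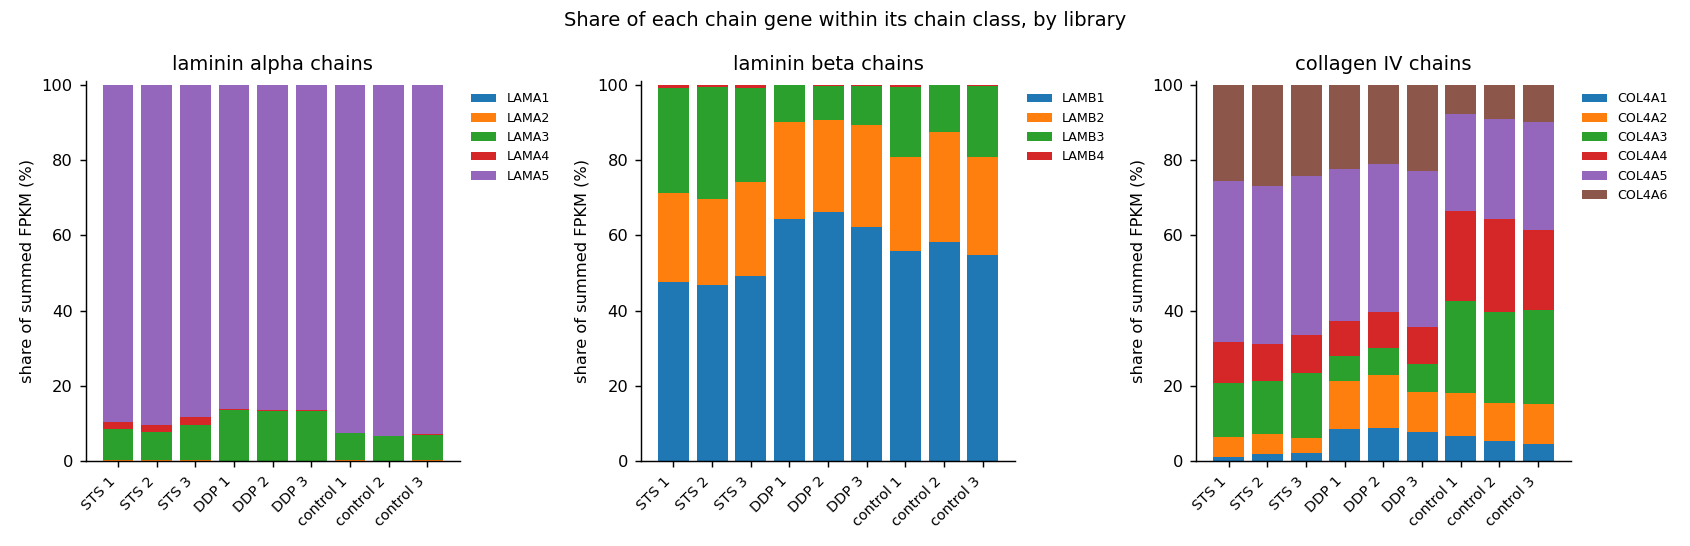
Share of each gene in the summed FPKM of its chain class (y axis, percent) in each of the 9 libraries, for laminin alpha chains, laminin beta chains and collagen IV, from left to right. LAMB3 takes its largest beta share in STS_apoEV (25.01% to 29.6%), LAMA3 its largest alpha share in DDP_apoEV (13.1% to 13.4%), and COL4A1 its smallest collagen IV share in STS_apoEV (1.23% to 2.15%).

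COL4A1 and COL4A2 encode the chains of the common collagen IV trimer, in which COL4A1 gives a pair of chains and COL4A2 the remaining one. COL4A1 stood at 2.31, 3.37 and 3.87 CPM in STS_apoEV, at 9.32, 10.97 and 9.15 CPM in DDP_apoEV, and at 7.42, 6.36 and 5.83 CPM in control, without overlap between any of the groups. It fell 2.05-fold with STS_apoEV (log2 fold change −1.04, SE 0.208, adjusted p = 1.86e-04) and rose with DDP_apoEV (log2 fold change 0.58, SE 0.189, adjusted p = 0.0311). The rise was lost without DDP_apoEV replicate 1 (adjusted p = 0.0628) or 2 (0.144), without control replicate 2 (0.0936) or 3 (0.138), under DESeq2 (0.0545) and under limma on unfiltered log2(FPKM + 1) (0.375). COL4A2 had 13.04, 12.1 and 9.64 CPM in STS_apoEV, 18.5, 22.6 and 16.1 CPM in DDP_apoEV, and 16.9, 15.3 and 17.1 CPM in control. It fell 1.42-fold with STS_apoEV (log2 fold change −0.50, adjusted p = 0.00522), and its DDP_apoEV libraries overlapped control (log2 fold change 0.21, 95% interval −0.06 to 0.48, adjusted p = 0.332). Both genes were lower in STS_apoEV than in DDP_apoEV, COL4A1 by 3.07-fold (adjusted p = 8.15e-08) and COL4A2 by 1.64-fold (adjusted p = 8.78e-05). With limma on unfiltered log2(FPKM + 1) the falls against control were not called (adjusted p = 0.164 for COL4A1 and 0.302 for COL4A2), nor was COL4A2 between the vesicle types (0.102).

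These 2 genes lie head to head on chromosome 13, and their shared promoter is shown because both were lower in STS_apoEV than in control. Within a library the FPKM ratio of COL4A2 over COL4A1 was 4.29, 2.74 and 1.90 in STS_apoEV. It was 1.51, 1.56 and 1.34 in DDP_apoEV, and 1.74, 1.83 and 2.24 in control. RefSeq places the starts 127 bases apart on opposite strands, and the windows at chr13:110307108-110307407, minus strand, for COL4A1 and chr13:110307034-110307333, plus strand, for COL4A2 share 226 bases. Capitals mark the same 4 motifs.
COL4A1: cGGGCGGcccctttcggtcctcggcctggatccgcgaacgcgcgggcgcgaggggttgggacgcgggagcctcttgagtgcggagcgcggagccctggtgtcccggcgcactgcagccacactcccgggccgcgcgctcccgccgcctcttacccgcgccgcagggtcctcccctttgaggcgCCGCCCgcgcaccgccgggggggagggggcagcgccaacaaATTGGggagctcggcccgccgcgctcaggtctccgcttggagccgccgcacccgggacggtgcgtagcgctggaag
COL4A2: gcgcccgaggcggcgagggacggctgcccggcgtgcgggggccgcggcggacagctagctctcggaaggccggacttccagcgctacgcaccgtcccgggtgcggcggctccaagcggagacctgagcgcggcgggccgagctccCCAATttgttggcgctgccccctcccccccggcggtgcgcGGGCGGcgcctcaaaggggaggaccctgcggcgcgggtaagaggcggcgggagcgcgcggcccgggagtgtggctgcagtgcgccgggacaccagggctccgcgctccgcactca
Both windows held the same CCAAT box and the same GC box, which lie in the shared bases and are read from opposite strands. Both lacked TGANTCA and GGAATG. GC boxes numbered 2 in the COL4A1 window, of which 1 lies outside the shared bases, and 1 in that of COL4A2. The deposited intervals of the pair overlap by 1346 bases, and their GENCODE v29 exons share 0 bases. Exons of LAMA5 overlap those of ADRM1 on the other strand by 244 bases and exons of LAMB1 those of DLD by 70, and without stated strand information reads from those stretches cannot be told apart.

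The other collagen IV genes, whose chains form trimers of more restricted use, also lie in head-to-head pairs. COL4A5 and COL4A6, 380 bases apart on chromosome X, rose with both vesicle types. COL4A5 averaged 62.0 ± 2.92 CPM in STS_apoEV and 38.1 ± 1.75 CPM in DDP_apoEV, against 25.7 ± 2.93 CPM in control (SD, n = 3; adjusted p = 1.02e-12 and 3.78e-05). COL4A6 rose 4.44-fold with STS_apoEV and 2.47-fold with DDP_apoEV (adjusted p = 1.67e-14 and 7.81e-09). COL4A3 and COL4A4, 419 bases apart on chromosome 2, fell with DDP_apoEV, COL4A3 by 3.45-fold (adjusted p = 3.38e-12) and COL4A4 by 2.44-fold (adjusted p = 2.70e-09). With STS_apoEV COL4A4 fell 1.46-fold (adjusted p = 6.06e-04), and COL4A3 had a log2 fold change of −0.06 (95% interval −0.30 to 0.18). Per length, COL4A1 and COL4A2 gave 1.23% to 2.15% and 4.07% to 5.30% of the collagen IV total in STS_apoEV, 7.88% to 8.91% and 10.5% to 13.9% in DDP_apoEV, and 4.70% to 6.67% and 10.1% to 11.6% in control. Over the 9 libraries, which fall into 3 groups and share depth and scaling, Pearson's r of log2 CPM was 0.80 for COL4A1 with COL4A2, 0.91 for COL4A3 with COL4A4 and 0.98 for COL4A5 with COL4A6, as a description.

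**Figure D4:**
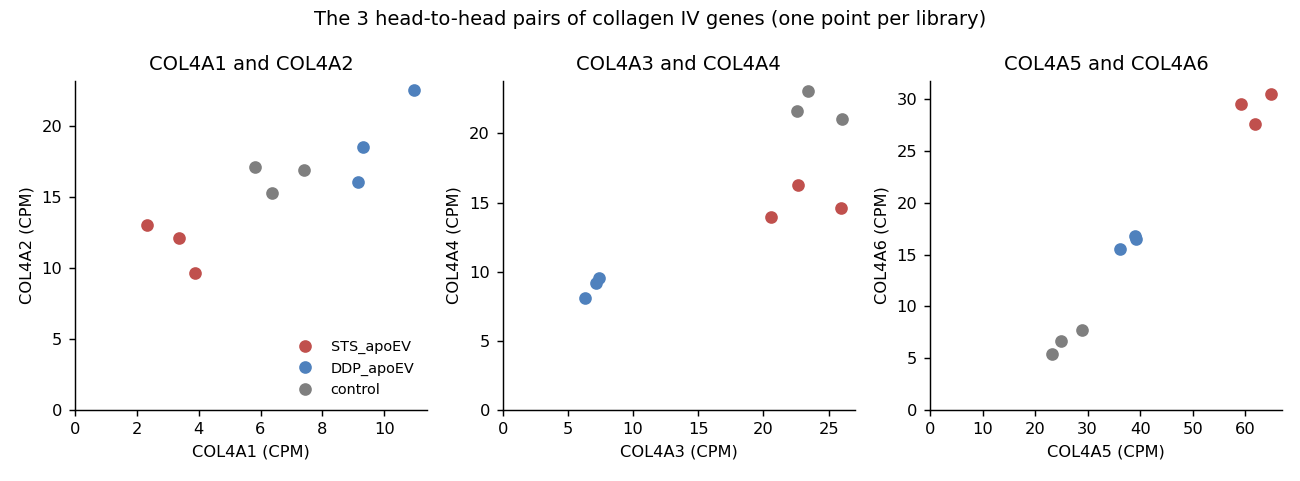
CPM of both genes of each head-to-head collagen IV pair (x and y axes, linear from 0), one point per library, coloured by group. STS_apoEV libraries are lowest for COL4A1 and COL4A2 and highest for COL4A5 and COL4A6, and DDP_apoEV libraries are lowest for COL4A3 and COL4A4.

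NID1, the nidogen gene that links laminin to collagen IV, was near the detection limit. It had 1.47, 0.742 and 0.774 CPM in STS_apoEV, 0.875, 2.62 and 0.826 CPM in DDP_apoEV, and 0.456, 0.274 and 0.972 CPM in control. The groups overlapped, and DDP_apoEV replicate 2 alone stood above 2 CPM. No comparison passed the test, with log2 fold changes of 0.81 for STS_apoEV against control (95% interval −0.31 to 1.93), 1.34 for DDP_apoEV against control (0.27 to 2.42, adjusted p = 0.0834) and −0.53 for STS_apoEV against DDP_apoEV (−1.53 to 0.46). The DDP_apoEV value was 0.58 without DDP_apoEV replicate 2, and it passed the threshold without DDP_apoEV replicate 3 (1.62, adjusted p = 0.0465) or control replicate 3 (1.95, adjusted p = 0.0391). Its relative NID2 stood at 4.38 ± 0.527 CPM in STS_apoEV, 5.10 ± 2.26 CPM in DDP_apoEV and 5.32 ± 1.64 CPM in control (SD, n = 3), and passed in no comparison.

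Other basement membrane genes are given by list, beside the 32.8% of all genes that changed with STS_apoEV, the 15.5% that changed with DDP_apoEV and the 39.7% that differed between the vesicle types. Of 10 other laminin, collagen IV and nidogen genes 9 were tested, LAMA1 having at most 2 counts in any library. Among the 9, 3 rose and 2 fell with STS_apoEV, 2 rose and 3 fell with DDP_apoEV, and 6 were higher and 1 lower in STS_apoEV than in DDP_apoEV, with median log2 fold changes of −0.06, −0.17 and 0.74. The gene that was lower in that last comparison, LAMC3, a laminin gamma chain gene, fell with STS_apoEV to 0.985 to 1.05 CPM, against 2.02 to 2.50 CPM in control (adjusted p = 0.0147). Of 21 other basement membrane proteins 14 were tested, of which 4 rose and 6 fell with STS_apoEV, 2 rose and 5 fell with DDP_apoEV, and 3 were higher and 5 lower in STS_apoEV than in DDP_apoEV. Their median log2 fold changes were −0.05, −0.12 and −0.16. TINAGL1, a secreted matrix protein gene, fell 4.86-fold with STS_apoEV and 4.47-fold with DDP_apoEV (adjusted p = 2.06e-07 and 1.14e-06). FRAS1, whose product helps bind epidermis to dermis, fell 2.94-fold with STS_apoEV and 1.66-fold with DDP_apoEV, and the fibulin gene FBLN1 had log2 fold changes of −0.94 and −0.58 (adjusted p = 1.95e-07 and 5.39e-04). The integrin ligand gene NPNT had 0.337 to 0.563 CPM in STS_apoEV and 0.0625 to 0.427 CPM in DDP_apoEV, against 1.32 to 1.85 CPM in control. HSPG2, the gene of the heparan sulfate proteoglycan perlecan, fell 1.75-fold with STS_apoEV against control (adjusted p = 1.30e-04) and was not called with DDP_apoEV. It was 1.62-fold lower in STS_apoEV than in DDP_apoEV (adjusted p = 4.05e-04). SMOC1, a secreted calcium-binding protein gene, and the netrin gene NTN4 were 3.19-fold and 1.47-fold higher there, and SMOC1 rose 2.37-fold with STS_apoEV against control. Against control NTN4 rose 1.19-fold with STS_apoEV and fell 1.23-fold with DDP_apoEV (adjusted p = 0.0146 and 0.0090).

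Of 14 receptor genes for laminin and collagen IV 13 were tested, and 5 rose and 1 fell with STS_apoEV, 3 rose and 2 fell with DDP_apoEV, and 5 were higher and 1 lower in STS_apoEV than in DDP_apoEV, with median log2 fold changes of 0.17, 0.02 and 0.15. Over all genes 15.9% rose and 16.8% fell with STS_apoEV, 7.16% rose and 8.32% fell with DDP_apoEV, and 20.2% were higher and 19.5% lower in STS_apoEV than in DDP_apoEV. ITGA2, a collagen and laminin receptor subunit gene, averaged 116 ± 12.02 CPM in STS_apoEV and 110.1 ± 10.8 CPM in DDP_apoEV, against 55.3 ± 6.72 CPM in control (SD, n = 3; adjusted p = 8.68e-10 and 9.92e-09). The syndecan gene SDC4 rose 1.67-fold with STS_apoEV and 1.51-fold with DDP_apoEV. ITGA6 and ITGB4 encode the integrin of hemidesmosomes, a laminin receptor. ITGA6 fell 1.34-fold with STS_apoEV and 1.21-fold with DDP_apoEV, while ITGB4 rose 1.78-fold with STS_apoEV and was 1.76-fold higher in STS_apoEV than in DDP_apoEV. ITGA3, another laminin receptor gene, rose 1.38-fold with DDP_apoEV and was 1.23-fold lower in STS_apoEV than in DDP_apoEV. The shared beta subunit gene ITGB1 and the tetraspanin gene CD151, whose product binds laminin receptors, were 1.22-fold and 1.23-fold higher in STS_apoEV than in DDP_apoEV. Against control ITGB1 rose 1.32-fold with STS_apoEV and was not called with DDP_apoEV, and CD151 was called with neither.

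Of 16 genes for collagen folding, modification and export 5 rose and 5 fell with STS_apoEV, where 32.8% of all genes changed (15.9% rose and 16.8% fell). With DDP_apoEV 2 rose and 3 fell, where 15.5% of all genes changed. Between the vesicle types 7 were higher and 5 lower in STS_apoEV than in DDP_apoEV, where 39.7% of all genes differed. The 3 median log2 fold changes were −0.02, −0.09 and 0.08. LOXL2, a lysyl oxidase gene that crosslinks collagen IV, followed the direction of COL4A1, falling 1.42-fold with STS_apoEV (adjusted p = 1.85e-04) and rising 1.28-fold with DDP_apoEV (adjusted p = 0.0112). The lysyl hydroxylase gene PLOD2 rose 1.31-fold with DDP_apoEV, and P4HA1 and P3H1, both prolyl hydroxylase genes, fell 1.22-fold and 1.28-fold. With STS_apoEV P3H2, another prolyl hydroxylase gene, fell 2.22-fold, whereas the collagen folding genes FKBP10 and CRTAP rose 1.62-fold and 1.40-fold. PLOD2 was 1.43-fold lower in STS_apoEV than in DDP_apoEV, and the collagen export gene MIA2 was 1.48-fold higher.

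The genes whose log2 CPM ran most like those of the members over the 9 libraries were listed by Pearson's r, as a description of libraries that fall into 3 groups. For LAMA4 they were PLAUR, ITGAX and SUPT5H (r of 0.991, 0.991 and 0.989). For COL4A1 they were TIPIN, TEAD4 and SPRYD7 (0.992, 0.991 and 0.985), and for COL4A2 PAQR4, COASY and RPS6KA4 (0.988, 0.975 and 0.973). For LAMA3 they were NHS, SSH1 and PAQR5 (0.991, 0.979 and 0.971), and for LAMB3 FAM234A, LZTS2 and CTSD (0.985, 0.980 and 0.979). LAMA5 ran closest to INTS9 (0.972), LAMB1 to CLTC (0.968), LAMC1 to DIP2B (0.907) and NID1 to ABCG1 (0.960). Among the members themselves LAMB1 and LAMC1 had an r of 0.86 and LAMB1 and LAMA5 one of 0.85, while LAMB3 and COL4A1 stood at −0.92 and LAMA3 and LAMB3 at −0.74.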

How the data were processed

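Per the labels' protocols, TRIzol RNA went into NEBNext Ultra libraries. The submitters' processing notes name featureCounts 1.5.0-p3, StringTie 1.3.3b, HISAT2 2.0.5, limma and the build hg38, without roles, and no strand setting. The authors deposited whole-number counts per gene, not normalized, and FPKM values. The ratio of deposited FPKM to count over length and library total had a median per library of 0.944 to 1.01, of unstated origin. That median was taken over genes with higher counts. From the counts, edgeR 4.0.16 (R 4.3.3) fitted all 9 libraries without covariates, with TMM scaling, its default filter and robust quasi-likelihood tests, adjusted by Benjamini-Hochberg over 16947 genes. CPM values of single genes are TMM-scaled, and CPM sums of marker lists are scaled to library totals alone. The SE is the log2 fold change over the root of F. The scripts were tested on simulated counts. DESeq2 1.42.0, limma 3.58.1, other scalings, filters and left-out libraries were alternatives. Members and lists were chosen with earlier results of these data known. Named genes were all members, up to 4 called genes of smallest p per pathway list and comparison, and the 3 most correlated genes per member (mean log2 CPM of at least 1). Depth per library is given with the results. Gene types and exons came from GENCODE v29, promoters from RefSeq. A gene of the laminin, collagen IV and nidogen list is not reported here.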

Additional observations from a re-analysis of the deposited data

How the results depend on the processing

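With limma on log2(FPKM + 1) and on log2(FPKM + 0.1), filtered at a mean FPKM of at least 1, only 5 of the 9 basement membrane genes were tested. Both settings called 1 with STS_apoEV against control and 4 between the vesicle types, where the edgeR counts were 4 and 7. The genes tested were LAMA3, LAMA5, LAMB1, LAMB3 and LAMC1. Those that edgeR called stayed called in both settings, and the missing calls were of genes not tested there. Without the filter, log2(FPKM + 1) called 1 with DDP_apoEV, 2 with STS_apoEV and 4 between the vesicle types. Over all genes, DDP_apoEV against control gave 2623 calls, and 1624, 1622 and 992 under those 3 settings in the same order. STS_apoEV against control gave 5552, and 4245, 4206 and 3617, and the vesicle types gave 6721, and 5204, 5173 and 4650. The limma fits tested 12647 genes with the filter and 37966 without it, and edgeR 16947. The cause of the lower counts over all genes, and of those without the filter, was not tested. With 1 library left out, 2 to 4 basement membrane genes were called with DDP_apoEV, 4 to 5 with STS_apoEV and 6 to 8 between the vesicle types, and over all genes 1841 to 2830, 4621 to 5638 and 5856 to 6753. Some signs turned, all without DDP_apoEV replicate 2 and none of them called. With DDP_apoEV against control LAMB1 then had −0.019 and LAMC1 −0.12, their lowest values with 1 library left out (highest 0.13 and 0.15), and NID1 had 0.21 between the vesicle types, its highest (lowest −0.93). Of 266 values of called genes under the alternatives 252 stayed called in the same direction and 14 lost the call. Of 247 values of genes not called, 5 gained one. Both tallies include fits that left out a library of the group not compared. In those fits the compared libraries stayed the same, so little change could follow. Same-numbered libraries did not deviate together (correlations of −0.0847 to 0.0547). Whether they were cultured or processed together cannot be told from these values. With the replicate block 2359, 5297 and 6429 genes were called, and the basement membrane counts stayed at 3, 4 and 7.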
